A study of Mus musculus with 21 samples.

Results

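The EGR, NR4A and CSRNP early response genes are 10 genes chosen by symbol: Egr1, Egr2, Egr3, Nr4a1, Nr4a2, Nr4a3, Csrnp1, Ier2, Ier3 and Btg2. All 10 were found among the 23420 gene symbols of the count table, and their RNA was read in all 21 libraries of inflammatory monocytes (IMs). The series asked how tumor inflammatory monocytes (TIMs) in mouse models of lung squamous cell carcinoma differ from IMs of the bone marrow (BM). LN2E1 TIMs came from primary tumors (n = 5) and from lymph node (LN) metastases (n = 5) of FVB mice that had received 500000 KAL-LN2-E1 cells in the lung, a line made by passage in mice. LN4K1 lung TIMs (n = 5) came from DBA2 mice given 300000 LN4K1 cells in a vein. BM IMs came from tumor-free FVB mice (n = 3) and tumor-free DBA2 mice (n = 3), and the methods describe adult mice of both sexes. Cell line, strain, route of injection and tissue changed together between the LN2E1 and LN4K1 models and cannot be told apart.

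IMs were enriched with a monocyte isolation kit and sorted as live Siglec-F- CD45+CD11b+Ly6C hi Ly6G- cells. The monocyte markers were present in every group, with 8 of 8 detected. Their summed level, in CPM (counts scaled to a common library size), was 10104 to 11422 in FVB and 11861 to 12655 in DBA2 BM IMs, 16437 to 20294 in primary tumor TIMs, 14465 to 17850.5 in LN TIMs and 14413 to 17707 in LN4K1 lung TIMs. Ly6c2, which encodes the Ly6C of the sort, ran the other way. Marrow libraries held between 2455 and 3618 CPM of it (FVB) and between 2525 and 2724 CPM (DBA2), whereas primary tumor TIMs held between 1109 and 1391 CPM, LN TIMs between 978 and 1676 CPM and LN4K1 lung TIMs between 1208 and 1672 CPM. The part of this in the members' changes was not tested. CPM was scaled by the trimmed mean of M values (TMM), and the totals behind them were 80772922 to 101043568 counts per library. The study's methods describe mincing and enzymatic digestion of lung tissue and name none for marrow, so tissue of origin and its preparation cannot be told apart. The study's methods call the replicates of each condition and baseline technical, and nothing in the labels says that they came from separate animals. The p-values therefore measure only the spread between these libraries, which may be technical. In bulk RNA, fewer cells that express a gene and less RNA per cell cannot be told apart.

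Early response genes are switched on within minutes of a stimulus, without new protein synthesis, by factors such as the serum response factor (SRF) and the cAMP-responsive factor CREB that already sit in the cell. The EGR genes encode zinc finger transcription factors, the NR4A genes encode orphan nuclear receptors that act without a known ligand, and CSRNP1 is a nuclear protein induced by the axin pathway. In myeloid cells, EGR1 is tied to monocyte differentiation, and NR4A1 is needed for the patrolling, Ly6C low monocytes that arise from Ly6C hi cells. IER2 and IER3 are small proteins that take part in transcription and in cell survival, and BTG2 recruits deadenylases that shorten mRNA tails and restrains proliferation.

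The members lie on different chromosomes. On GRCm38 (the mm10 build), GENCODE places Egr2 at chr10:67535475-67542188, Egr3 at chr14:70077203-70082614, Nr4a1 at chr15:101254269-101274795 and Nr4a3 at chr4:48045153-48086447, all on the plus strand. Nr4a2 lies at chr2:57106830-57124003, Csrnp1 at chr9:119971163-119984658, Ier2 at chr8:84661331-84662852 and Btg2 at chr1:134075170-134079120, all on the minus strand. Ier3 lies at chr17:35821684-35822923 on the plus strand. Counts were of whole genes, so no value belongs to a single exon. The libraries kept no strand, and 224 exon bases of Csrnp1 overlap an antisense gene, 1700019L13Rik. The other 9 members shared no exon base with another annotated gene.

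The letters before a RefSeq start of 5 members are shown because they hold short elements that were not used to choose the genes. RefSeq (GRCm38.p6) held a window of 250 bases before to 50 bases after the start for 7 members (not Egr1, Egr3 and Ier2). Both strands were searched for TGACG, the core of the cAMP response element, which reads CGTCA on the other strand. At least 1 TGACG lay in a window of 6 of the 7 members, against 23.0% of the 27025 genes in the table and 20.8% of the 32851 windows. A gene counted if any of its windows held 1 match, and Csrnp1 with 4 windows and Egr2 with 5 had more chances than a gene with 1. The windows of Nr4a1, Nr4a2 and Nr4a3 held 4 each, and 0.231% of all windows held 4 or more. The window of Btg2 held the full element TGACGTCA, found for 2.03% of genes, which also counts as 2 overlapping TGACG matches. Csrnp1 held 1 or 2 matches in each of its 4 windows and is not shown. Capitals mark the matches, and the stretches were trimmed to hold no annotated exon base, which leaves 3 of the 4 matches of Nr4a3. Those of Nr4a1 and Egr2 lie inside the gene as GENCODE draws it, in an intron of its longer transcripts and before a later start. A CArG box, the SRF element, is also in capitals in Egr2, where it stands just before a TGACG match, and 1.81% of genes held one. The first of the 5 Egr2 windows held neither element. Stretches read 5′ to 3′ on the strand of the gene.
Nr4a1 (chr15:101266596-101266845, plus strand): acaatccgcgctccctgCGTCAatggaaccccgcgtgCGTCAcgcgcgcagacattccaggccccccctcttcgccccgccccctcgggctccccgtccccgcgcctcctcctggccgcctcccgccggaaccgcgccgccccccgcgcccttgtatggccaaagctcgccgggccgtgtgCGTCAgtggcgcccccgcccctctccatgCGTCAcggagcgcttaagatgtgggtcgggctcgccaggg
Nr4a2 (chr2:57124004-57124253, minus strand): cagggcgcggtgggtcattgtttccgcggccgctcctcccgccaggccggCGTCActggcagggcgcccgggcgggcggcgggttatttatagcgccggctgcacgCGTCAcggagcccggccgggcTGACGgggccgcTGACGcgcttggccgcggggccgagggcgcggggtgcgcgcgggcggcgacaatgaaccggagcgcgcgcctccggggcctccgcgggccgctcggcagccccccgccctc
Nr4a3 (chr4:48045055-48045152, plus strand): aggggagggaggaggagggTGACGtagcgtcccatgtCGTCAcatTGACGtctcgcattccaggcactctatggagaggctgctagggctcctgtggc
Btg2 (chr1:134079156-134079405, minus strand): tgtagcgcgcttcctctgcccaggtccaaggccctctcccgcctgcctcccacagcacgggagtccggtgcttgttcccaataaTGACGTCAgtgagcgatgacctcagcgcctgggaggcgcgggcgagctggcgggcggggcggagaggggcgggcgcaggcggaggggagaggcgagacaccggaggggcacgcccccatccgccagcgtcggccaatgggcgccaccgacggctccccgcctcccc
Egr2 (chr10:67537797-67537818, plus strand): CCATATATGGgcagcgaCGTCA

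The window of Ier3 held no TGACG. GCGTGGGCG, the letters bound by EGR factors, was in 0 of the 7 members' windows against 0.707% of genes, and AAAGGTCA, the letters bound by a single NR4A protein, was in 0 of 7 against 1.7%. Each match is a run of letters and was not tested as a site.

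In primary tumor TIMs 9 of the 10 members rose against FVB BM IMs and Ier2 fell, at an adjusted p under 0.05 in the quasi-likelihood test of edgeR, with p-values adjusted by Benjamini-Hochberg across every gene tested. By that rule 61.9% of the 14569 genes tested were called, 33.3% higher and 28.6% lower. Egr3, among the 9, held no count in FVB BM IMs and entered the test only through its primary tumor counts. Of the 10, 6 were differentially expressed genes (DEGs), those with an adjusted p under 0.0001 and a log2 fold change above 1 in size, namely Egr1, Egr2, Nr4a1, Nr4a2, Csrnp1 and Ier3, against a background of 12.9%. The members' median log2 fold change was 3.29 (2.91 with Egr3 at the bound given with its counts), beside 0.08 over all genes. TMM scaling holds the median over all genes near 0. The members were chosen with earlier results of these data known, so the shares and medians here are no test of the set. In LN TIMs 6 of 9 tested members rose and Ier2 fell, where 37.4% of all genes were called, 20.2% higher and 17.2% lower, and 2 were DEGs (Nr4a2 and Csrnp1) against 5.71%, with a median of 3.02 beside -0.04. In LN4K1 lung TIMs 6 of 10 members rose over DBA2 BM IMs, where 24.9% of all genes were called and 13.9% were higher, and 2 were DEGs (Csrnp1 and Ier3) against 2.97%, with a median of 1.3 beside 0.03. Primary tumor and LN TIMs were set against the same 3 FVB BM IM libraries.

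**Figure D1:**
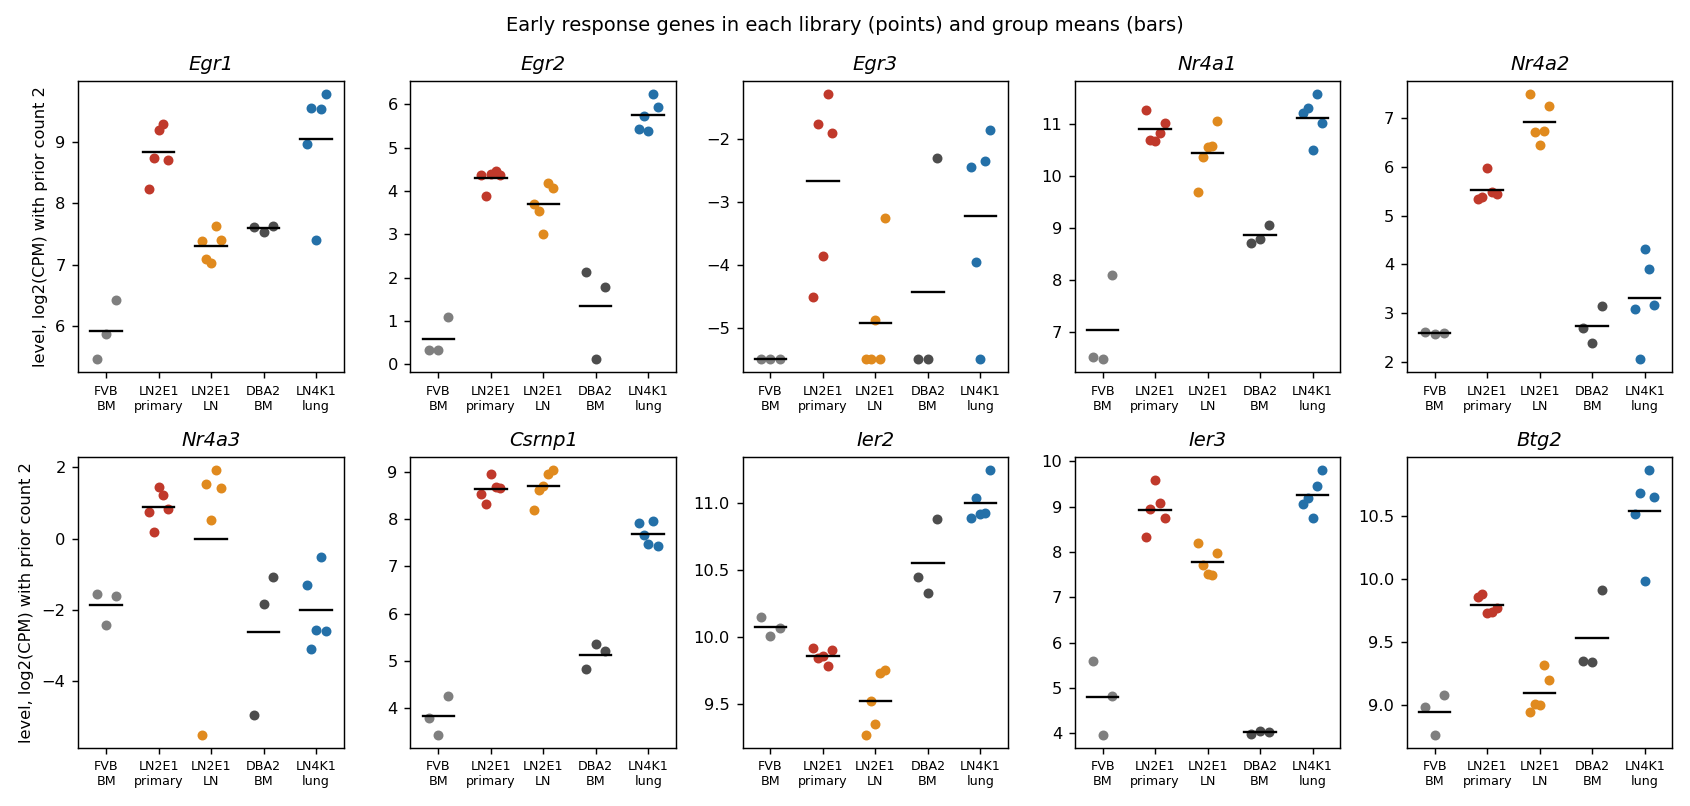
Levels of the 10 members in each of the 21 libraries, with 1 panel per gene, the group on the x axis and log2 CPM (prior count 2) on the y axis. Points are libraries and bars are group means. Csrnp1, Nr4a1, Egr2 and Ier3 sit higher in every TIM library than in any BM IM library, and Nr4a2 sits highest in LN TIMs and near marrow levels in LN4K1 lung TIMs.

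Per kb of exon, which sets genes of different length on 1 scale, the members differed in level by orders of magnitude. In primary tumor TIMs the mean was 611 CPM per kb for Ier2, 553 for Nr4a1, 452 for Ier3 and 325 for Btg2. Csrnp1 (115) and Egr1 (105) came next, followed by Nr4a2 (11.5), Egr2 (5.82), Nr4a3 (0.318) and Egr3 (0.0440). In FVB BM IMs the order from the top was Ier2 (710.04 CPM per kb), Btg2 (180.4), Nr4a1 (43.5), Ier3 (27.1), Egr1 (14.0) and Csrnp1 (4.20). Egr3 was the lowest in all 5 groups.

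Over the 5 groups, the mean CPM of Egr1, Egr2, Nr4a1, Ier3, Ier2 and Btg2 was highest in LN4K1 lung TIMs, that of Nr4a2, Nr4a3 and Csrnp1 in LN TIMs and that of Egr3 in primary tumor TIMs. For Nr4a1 the LN4K1 lung, primary tumor and LN libraries overlapped, in that order. For Egr1 and Ier3 the LN4K1 lung and primary tumor libraries overlapped, and for Csrnp1 and Nr4a3 the LN and primary tumor libraries. For Nr4a2 the LN4K1 lung libraries overlapped those of both marrows, and for Ier2 no neighbours in the order overlapped.

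Csrnp1 rose in all 3 TIM groups. In FVB BM IMs Csrnp1 stood at 13.8, 10.8 and 19.1 CPM. In primary tumor TIMs it stood at 372, 316, 498, 410.2 and 406 CPM, and in LN TIMs at 292, 393, 413, 493 and 527 CPM. Every TIM library lay above every marrow library, and the LN and primary tumor libraries overlapped. The log2 fold change against FVB BM IMs was 4.76 (SE 0.25, edgeR adjusted p 5.48e-07) in primary tumors and 4.87 (SE 0.28, adjusted p 1.57e-06) in LN. DBA2 BM IMs held 28.5, 40.8 and 37.1 CPM and LN4K1 lung TIMs 241, 202, 178, 251.5 and 174 CPM, a log2 fold change of 2.50 (SE 0.20, adjusted p 2.32e-05). Csrnp1 was a DEG in all 8 fits that left out 1 library in primary tumors and in LN. In lung it lost the DEG call without DBA2 BM replicate 1 (adjusted p 0.00023), 2 (0.000219) or 3 (0.000376) or lung replicate 2 (0.000107).

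Nr4a1, which encodes NUR77, was the most abundant of its family. Its levels in FVB BM IMs were 92.5, 89.8 and 276 CPM, and replicate 3 stood well above the others. Primary tumor TIMs held 2488, 1664, 1649.6, 1828 and 2075 CPM and LN TIMs 823, 1333, 1523, 1535 and 2146 CPM. All 10 of these libraries lay above the marrow libraries. The log2 fold changes were 3.64 (SE 0.43, adjusted p 9.23e-05) and 3.27 (SE 0.47, adjusted p 0.000455). Without FVB BM replicate 3 the primary tumor value was 4.41 (SE 0.21, adjusted p 6.06e-07), while without any of the other 7 libraries the adjusted p passed 0.0001, up to 0.000581 without FVB BM replicate 1. The primary tumor DEG call was also lost with no filter on low counts (adjusted p 0.000295) and with 10 counts asked of every library (0.000145). Nr4a1 became a DEG in LN without FVB BM replicate 3 (log2 4.03, adjusted p 7.56e-05). DBA2 BM IMs held 422, 446 and 539 CPM and LN4K1 lung TIMs 2372, 2533, 1450.0, 3069 and 2096 CPM, again without overlap, with a log2 fold change of 2.24 (SE 0.24, adjusted p 0.000163).

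Nr4a2, which encodes NURR1, separated the tumor sites. FVB BM IMs held 6.14, 5.94 and 6.01 CPM. Primary tumor TIMs held 40.3, 41.7, 63.0, 44.6 and 43.7 CPM and LN TIMs 179, 104, 87.2, 106 and 149.7 CPM, so that every LN library lay above every primary tumor library. The log2 fold change over marrow was 2.94 (SE 0.18, adjusted p 1.18e-06) in primary tumors and 4.38 (SE 0.28, adjusted p 2.68e-06) in LN, and both were DEGs in every fit that left out 1 library. In the DBA2 mice the marrow stood at 6.48, 5.25 and 8.85 CPM and LN4K1 lung TIMs at 8.47, 4.17, 19.8, 14.9 and 9.05 CPM. Those groups overlapped, with a log2 fold change of 0.65 (SE 0.45, adjusted p 0.331).

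Nr4a3, which encodes NOR1, was scarce, at 0.263 ± 0.0868 CPM (SD, n = 3) in FVB BM IMs. Primary tumor libraries held 152, 99, 229, 210 and 152 counts and FVB BM IM libraries 28, 16 and 34 counts, a log2 fold change of 2.83 (SE 0.48, adjusted p 0.000661, which was 0.066 with all 5 groups in 1 fit). LN libraries held 0, 217, 120, 305 and 224 counts, so 1 library had none. The LN log2 fold change was 3.02 (SE 1.49, adjusted p 0.144), and without LN replicate 1, the library at 0, it was 3.35 with an adjusted p of 0.00279, while DESeq2 gave an adjusted p of 0.0354 with all 5 libraries. LN4K1 lung libraries held 33, 9, 11, 66 and 13 counts and DBA2 BM IM libraries 1, 26 and 42, which overlapped (log2 0.22, SE 1.13, adjusted p 0.914).

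Within the NR4A family, per kb of exon, Nr4a1 made up 92.3% (LN) to 99.5% (LN4K1 lung) of the summed CPM. Nr4a2 took 4.22% ± 2.06 (SD, n = 3) in FVB BM IMs, 2.11% ± 0.672 (n = 5) in primary tumor TIMs and 7.63% ± 4.61 (n = 5) in LN TIMs. In DBA2 BM IMs its share was 1.24% ± 0.206 (n = 3) and in LN4K1 lung TIMs 0.482% ± 0.398 (n = 5). The shares in LN ran from 4.71% to 15.8% and did not overlap those of primary tumors, from 1.38% to 3.19%. They did overlap those of FVB BM IMs, from 1.85% to 5.42%. The highest LN share was that of replicate 1, which held the most Nr4a2 (179 CPM) and the least Nr4a1 (823 CPM) of its group.

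**Figure D2:**
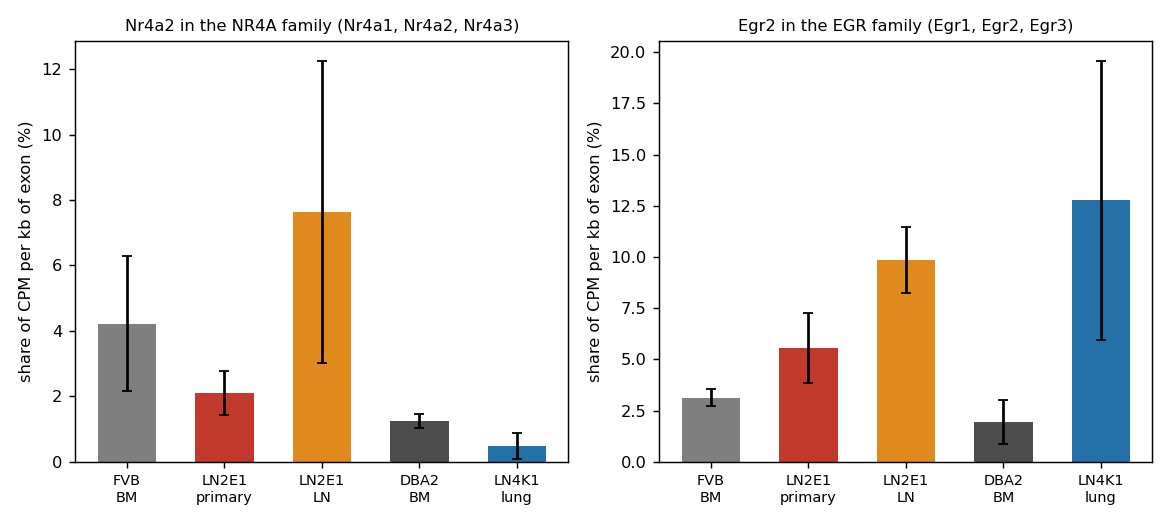
Share of the family's summed CPM per kb of exon, in percent on the y axis, held by Nr4a2 among Nr4a1, Nr4a2 and Nr4a3 (left) and by Egr2 among Egr1, Egr2 and Egr3 (right), for the 5 groups on the x axis. Bars are means and error bars are SD over 3 (BM) or 5 (TIM) libraries. The mean share of Nr4a2 is highest in LN TIMs at 7.63% and lowest in LN4K1 lung TIMs at 0.482%. The mean share of Egr2 is highest in LN4K1 lung TIMs at 12.8%. Shares of single libraries overlap between LN TIMs and FVB BM IMs for Nr4a2. They also overlap between the 2 lowest groups for Nr4a2, and between LN4K1 lung and LN TIMs for Egr2.

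Egr1, the best known factor of the EGR family and a gene of chromosome 18, differed in marrow as well as in tumors. FVB BM IMs held 44.3, 58.3 and 86.4 CPM, and DBA2 BM IMs 197, 185 and 198 CPM. Primary tumor TIMs held 299, 428, 585, 627 and 416 CPM, and all of them lay above the marrow of both strains. The log2 fold change over FVB BM IMs was 2.88 (SE 0.31, adjusted p 4.7e-05). It remained past an adjusted p of 0.05 in 8 of 8 fits without 1 library, and was a DEG only without primary tumor replicate 1, with adjusted p up to 0.000493 in the others (without FVB BM replicate 2). LN TIMs held 167, 136, 129.8, 198 and 169 CPM, above FVB BM IMs by 1.35 on the log2 scale (SE 0.23, adjusted p 0.00144). LN4K1 lung TIMs held 499, 744, 169, 740.4 and 876 CPM, and replicate 3 lay below all 3 DBA2 BM IM libraries. Their log2 fold change was 1.59 (SE 0.45, adjusted p 0.029). Without lung replicate 3 it was 1.83 (adjusted p 3.24e-05), and without any DBA2 library or without lung replicate 2, 4 or 5 the adjusted p passed 0.05, up to 0.102 without DBA2 BM replicate 2.

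Egr2, which marks alternatively activated macrophages, rose in all 3 TIM groups from a low base. FVB BM IMs held 1.23, 1.23 and 2.10 CPM. Primary tumor TIMs held 20.6, 14.8, 21.04, 21.98 and 20.5 CPM, LN TIMs 12.9, 11.6, 7.97, 18.05 and 16.9 CPM, and none overlapped the marrow. The log2 fold changes were 3.68 (SE 0.26, adjusted p 2.66e-06) and 3.15 (SE 0.40, adjusted p 0.000214). LN4K1 lung TIMs held 43.1, 53.6, 42.0, 75.3 and 60.9 CPM and DBA2 BM IMs 4.34, 1.08 and 3.42 CPM. These lung libraries were the highest of the series for Egr2, with a log2 fold change of 4.16 (SE 0.47, adjusted p 0.000188), and without lung replicate 3 the gene became a DEG there (adjusted p 7.43e-05).

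Egr3 was at the limit of detection. FVB BM IM libraries held 0 counts in all 3, and primary tumor libraries 2, 24, 4, 35 and 21 counts. Against a floor of 3 counts per marrow library, the mean primary tumor level (0.194 ± 0.155 CPM, SD, n = 5) was at least 6.33-fold higher. That bound leaves out the spread of the primary tumor libraries. The edgeR adjusted p was 0.0109, in a test that Egr3 entered only through its primary tumor counts. Without primary tumor replicate 2, 4 or 5 Egr3 no longer passed the filter on low counts and had no test. LN libraries held 0, 0, 1, 0 and 7 counts, DBA2 BM IMs 0, 0 and 17, and LN4K1 lung TIMs 14, 4, 0, 17 and 23, which overlapped. Per kb of exon Egr1 made up 87.2% (LN4K1 lung) to 98.0% (DBA2 BM) of the EGR family. Egr2 took 12.8% ± 6.79 (SD, n = 5) in LN4K1 lung TIMs, 9.85% ± 1.60 (n = 5) in LN TIMs and 5.55% ± 1.71 (n = 5) in primary tumor TIMs. In marrow its share was 3.12% ± 0.414 (n = 3) in FVB and 1.94% ± 1.06 (n = 3) in DBA2 BM IMs. The Egr2 shares in lung ran from 8.40% to 24.7% and overlapped those in LN, from 7.49% to 11.7%. The highest lung share was that of replicate 3, where Egr1 was lowest (169 CPM).

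Ier3, an immediate early gene also known as IEX-1, rose in all TIM groups. Levels were 48.4, 15.6 and 28.0 CPM in FVB BM IMs and 15.9, 16.4 and 16.2 CPM in DBA2 BM IMs. Primary tumor TIMs held 322, 491, 765, 542 and 432 CPM, LN TIMs 294, 209, 184, 181 and 252 CPM, and LN4K1 lung TIMs 531, 585, 432, 697 and 896 CPM. No TIM library overlapped the marrow of either strain. The log2 fold change was 4.05 (SE 0.44, adjusted p 5.35e-05) in primary tumors, 2.88 (SE 0.36, adjusted p 0.000189) in LN and 5.22 (SE 0.27, adjusted p 2.34e-06) in LN4K1 lung, where it was a DEG in 8 of 8 fits without 1 library. In primary tumors the DEG call was lost without FVB BM replicate 2 or 3 or primary tumor replicate 2, 4 or 5, with an adjusted p of up to 0.00122 (without FVB BM replicate 3), and also with no filter (0.000225) or with 10 counts asked of every library (0.000101).

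Btg2 moved less than the members above. FVB BM IMs held 508, 436 and 540.3 CPM, primary tumor TIMs 930.1, 945, 852, 854 and 872 CPM, and LN TIMs 495, 514, 513, 639.7 and 588 CPM. Primary tumor libraries stood apart from marrow (log2 0.83, SE 0.10, adjusted p 6.07e-05), and LN libraries overlapped it (log2 0.16, SE 0.12, adjusted p 0.356). DBA2 BM IMs held 654, 648 and 962 CPM and LN4K1 lung TIMs 1462, 1635, 1013, 1864 and 1602 CPM. The lung libraries all lay above the DBA2 marrow (log2 0.95, SE 0.22, adjusted p 0.0124), but the adjusted p was 0.0613 without DBA2 BM replicate 1 and 0.0662 without DBA2 BM replicate 2.

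Ier2 was the member with the highest level per kb of exon in all 5 groups, and it did not follow the others. Its level per kb ran from 488 CPM per kb (LN) to 1357 CPM per kb (LN4K1 lung). FVB BM IMs held 1138, 1031 and 1073 CPM and primary tumor TIMs 970.4, 915, 932, 878 and 954 CPM, so each primary tumor library lay below each marrow library. The difference was small: it fell by 0.23 on the log2 scale (SE 0.07, adjusted p 0.021). It missed the threshold without FVB BM replicate 1 (adjusted p 0.127), FVB BM replicate 2 (0.0588) or primary tumor replicate 4 (0.0537), and also with DESeq2's size factors (log2 -0.18, adjusted p 0.0617), no filter (0.0598), 10 counts asked of every library (0.0655) and all 5 groups in 1 fit (0.176). LN TIMs held 617, 733, 651, 849.8 and 864 CPM, a fall of 0.53 (log2 -0.53, SE 0.13, adjusted p 0.00991). DBA2 BM IMs held 1395, 1291 and 1879 CPM and LN4K1 lung TIMs 1895, 2108, 1935, 1956 and 2433 CPM, and although no library overlapped, the log2 difference of 0.38 (SE 0.15) had an adjusted p of 0.097. That p was 0.0324 without DBA2 BM replicate 3 and 0.047 without lung replicate 3, and 0.017 with all 5 groups in 1 fit.

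**Figure D3:**
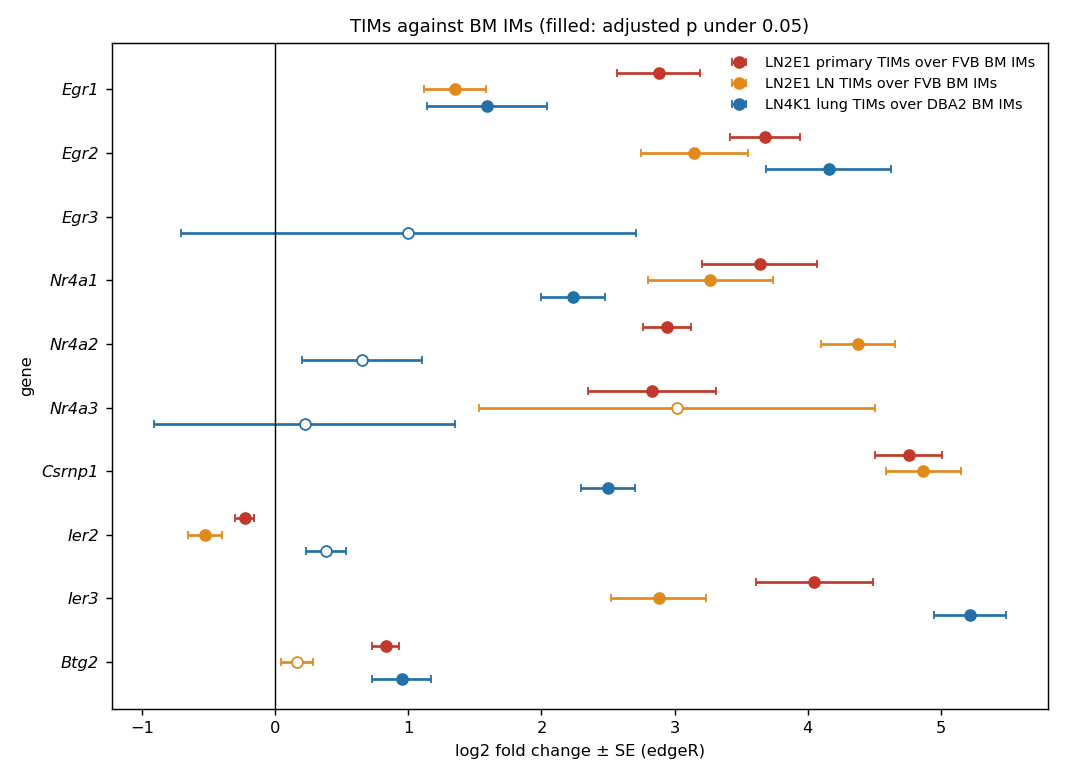
Log2 fold change of each member on the x axis, with SE as error bars, for LN2E1 primary tumor TIMs and LN2E1 LN TIMs over FVB BM IMs and for LN4K1 lung TIMs over DBA2 BM IMs. Filled points have an adjusted p under 0.05, and Egr3 is drawn for lung alone, since its FVB BM IM libraries were at 0. Csrnp1 lies at 4.76, 4.87 and 2.50, Nr4a2 at 2.94, 4.38 and 0.65, and Ier2 lies left of 0 in both LN2E1 comparisons.

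The DEG counts depended on single libraries. In primary tumors 3 members were DEGs without FVB BM replicate 2 or without primary tumor replicate 2, 4 or 5. In lung 5 were DEGs without LN4K1 lung replicate 3, and 1 without any of the DBA2 BM replicates or without lung replicate 2. Lung replicate 3 was the lowest of its group for 5 of the 9 members other than Egr3, and the highest for Nr4a2. Libraries of the compared groups did not overlap for 10 of 10 members in primary tumors against 58% of all genes, 7 of 9 in LN against 42.9%, and 6 of 10 in lung against 34.5%. The 10 include Egr3, where primary tumor replicate 1 held 2 counts, under the bound of 3, and FVB BM IMs held 0.

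Markers of other cells moved with the groups. Fibroblast markers (5 of 5 in the table) summed to 363 to 1099 CPM in primary tumor TIMs, 0.836 to 86.8 CPM in LN and 1.296 to 42.5 CPM in LN4K1 lung, and in FVB BM IMs to at most 0.194 CPM, with Col1a1, Col3a1, Dcn and Pdgfra at 3 counts or fewer. Epithelial markers (6 of 6) summed to 106 to 674 CPM in primary tumor TIMs, 9.78 to 139.7 CPM in LN, 2.83 to 85.8 CPM in lung and 1.31 to 2.07 CPM in FVB BM IMs. Endothelial markers (4 of 4) summed to 59.1 to 80.9 CPM in primary tumors and 70.7 to 128 CPM in LN, against 6.06 to 11.2 CPM in FVB BM IMs, and to 5.72 to 18.03 CPM in LN4K1 lung against 11.6 to 13.7 CPM in DBA2 BM IMs, which overlapped. T cell markers (5 of 5) summed to 8.71 to 27.4 CPM in primary tumors, 3.41 to 54.5 CPM in LN and 7.12 to 24.0 CPM in lung, where the marrow held 1.05 to 2.53 CPM (FVB) and 0.702 to 2.07 CPM (DBA2), and Cd3e and Cd8a were at 3 counts or fewer in both marrows. Neutrophil markers (10 of 10) ran the other way, with 4444 to 5698 CPM in FVB and 3154 to 3861 CPM in DBA2 BM IMs against 651 to 2269 CPM over the TIM groups. Eosinophil markers (6 of 6) summed to 540.4 to 1157 CPM in FVB and 436 to 1125 CPM in DBA2 BM IMs and to 69.7 CPM or less in TIMs. Per the methods, Siglec-F+ cells were gated out of lung tissue to remove eosinophils and/or alveolar macrophages. The supplement's gating scheme, for tumor and healthy marrow alike, also took Siglec-F- cells. Alveolar macrophage markers (6 of 6) summed to 33.4 to 76.8 CPM in LN and 14.5 to 27.7 CPM in primary tumors, where FVB marrow held 10.1 to 16.9 CPM, and to 5.65 to 24.3 CPM in lung, where DBA2 marrow held 9.67 to 16.5 CPM. Macrophage markers (5 of 6 in the table) summed to 1162 to 1337 CPM in FVB BM IMs and 2110 to 5197 CPM over the TIM groups. The part of these cells in the members' changes was not tested.

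Between the tumor sites of the LN2E1 model, Egr1, Ier3 and Btg2 were lower in LN than in primary tumor TIMs and Nr4a2 was higher. Egr1 fell by 1.55 on the log2 scale (SE 0.20, adjusted p 0.000976), Ier3 fell by 1.18 (SE 0.22, adjusted p 0.00581), Btg2 fell by 0.68 (SE 0.09, adjusted p 0.000942) and Nr4a2 rose by 1.44 (SE 0.20, adjusted p 0.00178). All 4 kept an adjusted p under 0.05 in the 10 fits without 1 library. By that rule 11.7% of all genes were called, 6.15% higher and 5.55% lower in LN. Csrnp1 differed by 0.09 (SE 0.16, adjusted p 0.768), Nr4a1 by -0.39 (SE 0.21, adjusted p 0.288) and Egr2 by -0.54 (SE 0.22, adjusted p 0.143), and their libraries overlapped. Libraries did not overlap for 5 of 9 members, against 14.4% of genes. Ier2 was the fifth, lower by 0.31 (log2 -0.31, SE 0.10, adjusted p 0.0742). Its adjusted p was 0.0435 without LN replicate 4, 0.041 without LN replicate 5, 0.0474 with DESeq2's size factors, 0.0367 with 10 counts asked of every library and 0.00912 in DESeq2. None of the 9 tested members was a DEG by edgeR (0, against 0.0297% of genes), with 6 at an unadjusted p under 0.05, and DESeq2 called 3 with unshrunken and 2 with shrunken fold changes.

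Marrow of the 2 strains differed too. Egr1 was higher in DBA2 than in FVB BM IMs by 1.64 on the log2 scale (SE 0.23, adjusted p 0.0024), and Csrnp1 by 1.3 (SE 0.24, adjusted p 0.00815), each in 6 of 6 fits without 1 library. Nr4a1 (1.63, SE 0.42, adjusted p 0.0279), Btg2 (0.63, SE 0.17, adjusted p 0.0327) and Ier2 (0.52, SE 0.14, adjusted p 0.0364) were higher as well. These 3 missed the threshold without 1 library, with Nr4a1 at up to 0.0906 (without DBA2 BM replicate 2) and at 0.101 with no filter, Btg2 at up to 0.127 and Ier2 at up to 0.138 (both without FVB BM replicate 2). In all, 5 of 9 members passed an adjusted p of 0.05, against 21.1% of genes in either direction and 11.5% higher, and their libraries did not overlap, against 42.1%. Ier3 was at -0.90 (SE 0.34, adjusted p 0.0966, 0.0204 without FVB BM replicate 2 and 0.0296 in DESeq2). None was a DEG by edgeR (0, against 0.403%), with 6 at an unadjusted p under 0.05, and DESeq2 called 2 with either kind of fold change. Without FVB BM replicate 3, edgeR called 2, Egr1 (adjusted p 4.26e-05) and Nr4a1 (1.58e-05).

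The change from marrow to tumor was set side by side in the LN4K1 lung and LN2E1 primary tumor models with an interaction term. The rise of Csrnp1 was smaller in LN4K1 lung by 2.28 on the log2 scale (-2.28, SE 0.29, adjusted p 0.000143), and that of Nr4a2 by 2.31 (-2.31, SE 0.49, adjusted p 0.0039). Both passed in 16 of 16 fits without 1 library. The rise of Nr4a1 was also smaller (-1.42, SE 0.46, adjusted p 0.0322), but this passed in 10 of 16 fits. It missed without FVB BM replicate 1 (0.0933) or 2 (0.0947), DBA2 BM replicate 2 (0.0562) or 3 (0.0755), lung replicate 5 (0.052) or primary tumor replicate 1 (0.0538). Ier2 changed by 0.59 more in LN4K1 lung (SE 0.16, adjusted p 0.0138), in 16 of 16 fits. These 4 of 10 members stand against 26.5% of all genes, 13.3% with the higher and 13.2% with the lower value in LN4K1 lung. Ier3 (1.15, SE 0.45, adjusted p 0.0676), Egr1 (-1.31, SE 0.55, adjusted p 0.0864), Egr2 (0.47, SE 0.48, adjusted p 0.508) and Btg2 (0.10, SE 0.24, adjusted p 0.827) did not pass, nor did Nr4a3 (-2.63, SE 1.18, adjusted p 0.111). Egr3 has no value here, since all 3 FVB BM IM libraries were at 0 counts. Ier3 passed without FVB BM replicate 2 (0.0224), lung replicate 3 (0.042) or primary tumor replicate 3 (0.0328), Egr1 without lung replicate 3 (0.0321) and Nr4a3 without DBA2 BM replicate 1 (0.0308). DESeq2 called these 3 with all libraries (adjusted p 0.0448, 0.0381 and 0.0466), and edgeR called Ier3 with 10 counts asked of every library (0.0477) or all 5 groups in 1 fit (0.0439). The interaction carries the marrow difference between strains with it: Nr4a1 stood at 2304 ± 595 CPM (SD, n = 5) in LN4K1 lung and 1941 ± 351 CPM (n = 5) in primary tumors, which overlapped.

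**Figure D4:**
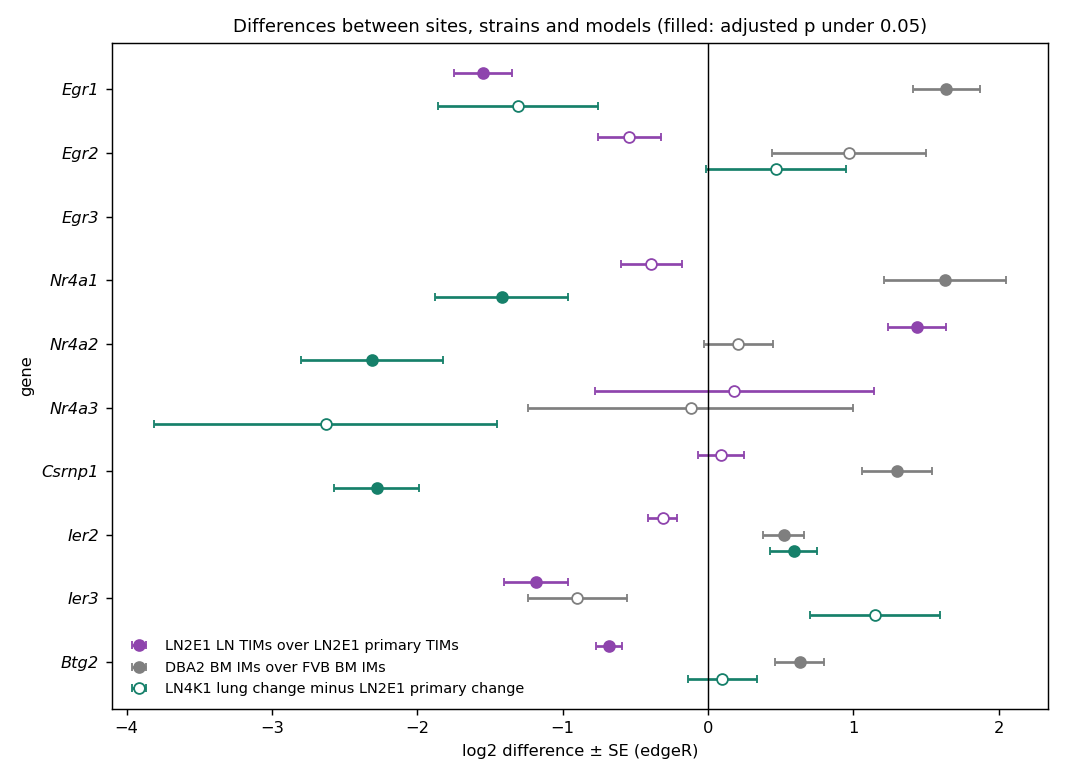
Log2 differences of the members with SE as error bars for LN over primary tumor TIMs, for DBA2 over FVB BM IMs, and for the LN4K1 lung change minus the LN2E1 primary tumor change. Egr3 is not drawn. Filled points have an adjusted p under 0.05. Nr4a2 is at 1.44 in the first and at -2.31 in the third, and Egr1 is at -1.55 in the first and at 1.64 in the second.

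Genes tied to the members were described with a list of 21 relatives and regulators. In primary tumors 11 of 18 tested passed an adjusted p of 0.05, all higher, in LN 9 of 17, all higher, and in lung 5 of 18, all higher, with medians of 0.97, 1.09 and 0.58. Over all genes 61.9%, 37.4% and 24.9% passed in either direction, and 33.3%, 20.2% and 13.9% passed and were higher. The shares of the list that passed in primary tumors and lung were near the shares in either direction. In all 3 comparisons the list's shares lay above the higher-only shares. Nab2, a corepressor of EGR factors that EGR1 itself induces, was at 1.16 ± 0.343 CPM (SD, n = 3) in FVB BM IMs, 32.0 ± 5.65 (n = 5) in primary tumor and 14.8 ± 5.09 (n = 5) in LN TIMs, 0.942 ± 0.649 (n = 3) in DBA2 BM IMs and 10.8 ± 4.17 (n = 5) in lung TIMs. Its log2 fold changes were 4.76 (adjusted p 7.81e-07), 3.67 (0.000119) and 3.46 (0.00312), without overlap in any of the 3, and it was lower in LN than in primary tumors (-1.10, SE 0.24, adjusted p 0.0144). Its paralog Nab1 did not pass in any of the 3 (log2 0.23, 1.02 and 0.96, adjusted p 0.59, 0.122 and 0.133). Nor did Srf (0.51, -0.53 and 0.66, adjusted p 0.459, 0.0821 and 0.301) or, where tested, Egr4 (-0.48 and 1.09 in primary tumors and lung, adjusted p 0.814 and 0.706).

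Crem, whose short forms repress cAMP-responsive genes, rose by 4.02 (SE 0.20, adjusted p 3.9e-07) in primary tumors, 4.69 (SE 0.22, adjusted p 5.3e-07) in LN and 2.31 (SE 0.30, adjusted p 0.000474) in lung. It was higher in LN than in primary tumors (0.66, SE 0.15, adjusted p 0.0139), with libraries that overlapped, and its rise was smaller in LN4K1 lung than in primary tumors (-1.73, SE 0.33, adjusted p 0.00191). Btg1, a relative of Btg2, rose by 1.72, 2.07 and 1.41 (adjusted p 2.33e-06, 3.97e-06 and 0.000228), also in LN, where Btg2 did not pass. Ier5, a relative of Ier2, rose by 1.62, 1.63 and 1.87 (adjusted p 7.06e-06, 0.000151 and 0.00323), whereas Ier2 fell in the first and second of these. Tob1, an antiproliferative relative of Btg2, rose by 1.71 (SE 0.22, adjusted p 0.000105) in primary tumors and 2.46 (SE 0.24, adjusted p 3.82e-05) in LN, and in lung its log2 fold change was -0.32 (SE 0.22, adjusted p 0.331). Its change in lung differed from that in primary tumors by -2.05 (SE 0.32, adjusted p 0.000604).

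Of 33 other early response genes, 24 passed an adjusted p of 0.05 in primary tumors, all higher, with a median log2 fold change of 1.31. In LN 17 rose and 1 fell (median 0.88), and in lung 15 passed, all higher (median 1.07). The shares of all genes that passed were 61.9%, 37.4% and 24.9%, and those that passed and were higher 33.3%, 20.2% and 13.9%. The largest rises among DEGs were those of Cyr61 (7.94, SE 0.73, adjusted p 1.98e-05), a matrix-associated signal protein, and Maff (4.56, SE 0.43, adjusted p 1.8e-05), a small MAF factor, in primary tumors. In LN they were those of Dusp5 (5.40, SE 0.32, adjusted p 1.71e-06), an ERK phosphatase, and Maff (4.80, SE 0.44, adjusted p 2.36e-05), and in lung those of Zfp36l1 (4.21, SE 0.28, adjusted p 7.98e-06), an mRNA decay factor, and Gadd45b (2.68, SE 0.19, adjusted p 1.3e-05), a stress sensor. Cyr61 averaged 193 CPM over the primary tumor libraries, against 1.02 CPM for LN, 4.01 CPM for LN4K1 lung and 0.756 CPM for FVB marrow. The summed fibroblast markers were likewise highest in primary tumors. Whether other cells had a part in the rise of Cyr61 was not tested. Fos was the DEG that fell: it was at 5880.0 ± 1354 CPM (SD, n = 3) in FVB BM IMs and 1851 ± 222 CPM (n = 5) in LN TIMs (log2 -1.66, SE 0.16, adjusted p 3.24e-05). In primary tumors, at 4710.3 ± 648 CPM (n = 5), Fos did not pass (-0.33, adjusted p 0.0839). At an adjusted p under 0.05, LN TIMs were lower than primary tumor TIMs for 11 of the 33 and higher for 2, where 5.55% of all genes were lower and 6.15% higher.

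**Figure D5:**
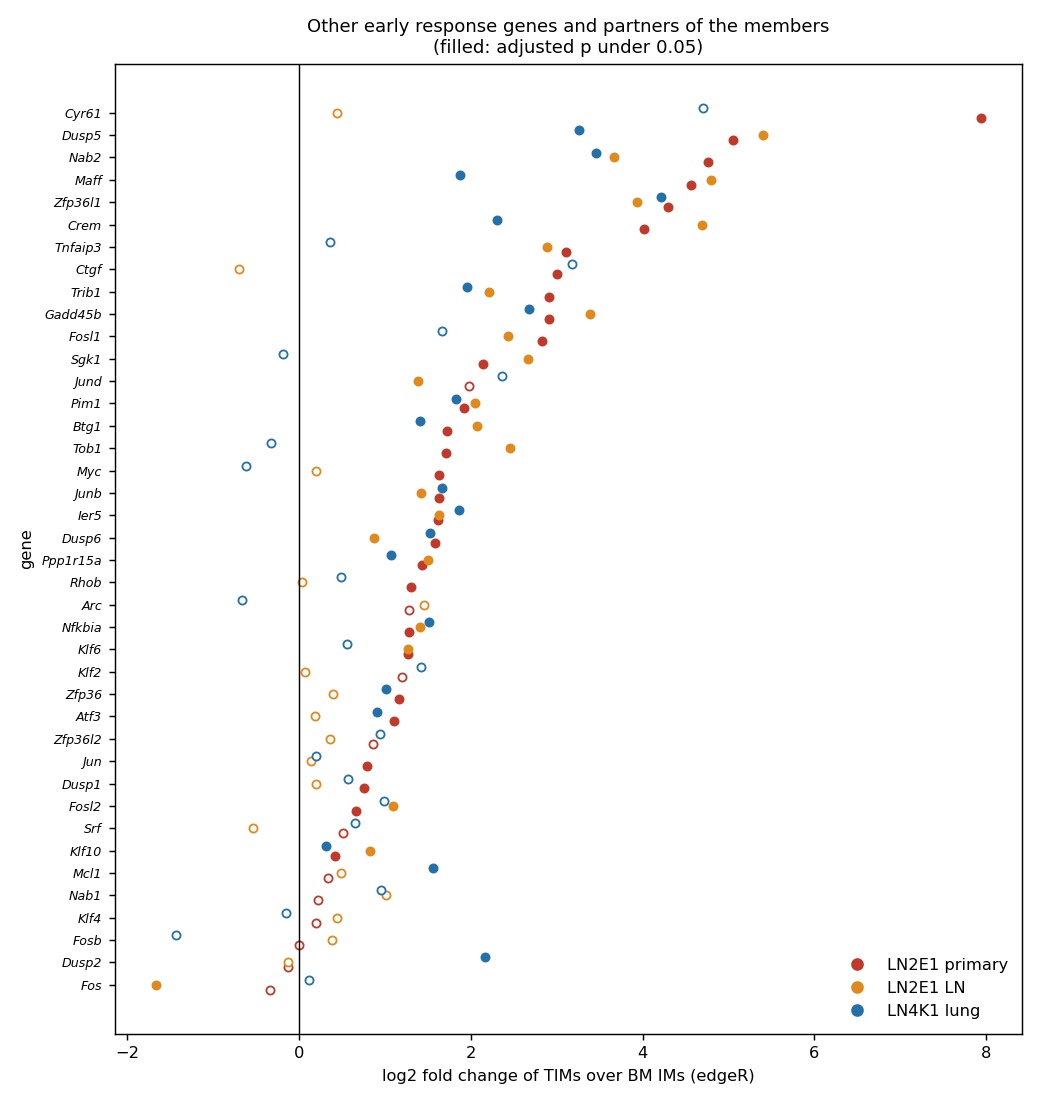
Log2 fold change over BM IMs on the x axis for the 33 other early response genes and 7 relatives or regulators of the members, in LN2E1 primary tumor, LN2E1 LN and LN4K1 lung TIMs. Filled points have an adjusted p under 0.05. Nab2 and Crem lie right of 2 in all 3 comparisons, and Fos lies at -1.66 in LN.

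Heat shock genes, which also respond fast to stress, were counted beside them. Of 9, 4 rose and 3 fell in primary tumors (61.9% of all genes passed), 5 rose and 1 fell in LN (37.4%), and 1 rose in lung (24.9%), with medians of 0.22, 0.73 and 0.06. Over all genes 33.3%, 20.2% and 13.9% passed and were higher. Their log2 fold changes ran from -0.84 to 4.88 in primary tumors, from -0.73 to 4.33 in LN and from -0.35 to 2.15 in lung. Hspa1a and Hspa1b were the 2 DEGs of this list by edgeR in primary tumors (4.88 and 4.77, adjusted p 2.52e-05 and 2.83e-05). They were also the 2 DEGs in LN (4.33 and 4.17, adjusted p 2.64e-06 and 2.81e-06). In lung neither passed (2.15 and 1.96, adjusted p 0.0935 and 0.0707).

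The genes whose log2 CPM followed each member most closely over the 21 libraries were found by the root mean square difference after centring, among 8015 other genes with a mean log2 CPM above 3 (8016 for Nr4a3). For Btg2 the nearest was Zfp36 (0.25), for Ier2 B3galt4 (0.24), for Csrnp1 Gbp7 (0.37), for Nr4a1 Ppp1r3d (0.44), for Nr4a2 B3gnt5 (0.5) and for Egr1 Tgfb1 (0.57). Egr2 and Ier3 had the same nearest gene, Zfp36l1 (0.58 and 0.67). Nr4a3, with few counts, had none closer than 1.37 (Usp6nl). Between members, the distance was 0.41 for Ier2 and Btg2, 0.75 for Egr1 and Btg2, 0.81 for Nr4a1 and Csrnp1, 0.83 for Egr2 and Nr4a1 and 0.84 for Egr2 and Ier3. The distance is not scaled, so a gene that changes little lies close to many others. Among the genes nearest to the first of each pair, the second stood at place 309, 23, 96, 10 and 12, in that order. Seen from the second, the first stood at place 38, 4249, 103, 117 and 7. Nr4a2 was 1.23 from Csrnp1, 1.70 from Nr4a1, 2.09 from Egr1 and 2.23 from Ier2. These distances describe libraries that share groups, and carry no test.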

How the data were processed

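RNA of 21 libraries was analysed from the raw read counts that the authors deposited for 23420 gene symbols. Per the methods, the authors trimmed adapters with BBDuk, aligned the reads to the mm10 build with BBMap and summed them per gene with featureCounts. The submitters' processing notes give featureCounts 1.5.2 and SAMtools 1.8. The annotation and counting settings are not given in the sources used here. Groups came from the sample labels, and no library was left out.

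Counts were tested in R 4.3.3 with edgeR 4.0.16 (TMM factors, default filter at 10 counts in enough libraries and 15 in total, robust quasi-likelihood fit), separately for each pair of groups, with Benjamini-Hochberg adjustment over all genes tested. The standard error is the log2 fold change divided by the square root of F and is approximate. CPM used TMM factors over the 21 libraries. A count of 0 was bounded by 3 counts per library, which covers counting error only. The script was tested on simulated data.

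The members and lists were chosen with earlier results of these data known. Besides the members, Nab1, Nab2, Egr4, Ier5, Btg1 and Srf were always named, and up to 2 DEGs with the largest rise and 2 with the largest fall per list and comparison of TIMs with BM IMs. Alternatives were DESeq2 1.42.0, its size factors, other filters, a fit of all 5 groups, the replicate number as a block and leaving out each library. Replicates 1 to 3 or 5 are numbered in the labels of each group. Correlations between the deviations of same-numbered libraries were small, which does not settle whether the numbers pair libraries.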

Additional observations from a re-analysis of the deposited data

Results flagged for a closer look

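In groups of 5 libraries, 3 values of the members stood far from the others of their group by Dixon's test, which chance gives in about 1 of 20 groups. The series holds 3 such groups and 10 members, so some such values come by chance. Egr2 in primary tumor replicate 2 was the lowest of its group, at 14.8 CPM with the nearest library at 20.5 CPM (gap over range 0.799). Egr3 in LN replicate 5 was the highest, at 0.0829 CPM with the nearest at 0.0118 CPM (0.857), which rests on 7 counts against 1. Nr4a2 in primary tumor replicate 3 was the highest, at 63.0 CPM with the nearest at 44.6 CPM (0.811).

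For 4 members the change from BM IMs to TIMs differed between LN4K1 lung and LN2E1 primary tumors in edgeR's interaction test. The differences, lung minus primary tumor on the log2 scale, were -1.42 for Nr4a1 (adjusted p 0.0322), -2.31 for Nr4a2 (adjusted p 0.0039), -2.28 for Csrnp1 (adjusted p 0.000143) and 0.59 for Ier2 (adjusted p 0.0138). Cell line, strain, route and tissue cannot be told apart in them.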

How the results depend on the processing

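Of 914 refitted log2 fold changes of the members, 809 kept direction and side of the DEG threshold (for the interaction, an adjusted p of 0.05), 44 lost the call, 52 gained it and 9 changed sign. The sign changes were in Nr4a3 and Nr4a2, none of them called: Nr4a3 in lung was -0.1 with the replicate block, -0.35 without DBA2 BM replicate 1 and -0.38 without lung replicate 4, Nr4a3 in LN over primary tumors was -0.32 with the block and -0.12 without LN replicate 4, Nr4a2 in DBA2 over FVB marrow was -0.02 without DBA2 BM replicate 3, and Nr4a3 there was 0.03, 0.02 and 0.44 without FVB BM replicate 1, FVB BM replicate 3 and DBA2 BM replicate 1. With 1 library left out, these 4 comparisons ran from -0.38 to 1.03 (Nr4a3, lung), -0.12 to 0.51 (Nr4a3, LN over primary tumors), -0.02 to 0.37 (Nr4a2, marrows) and -0.94 to 0.44 (Nr4a3, marrows). DEG counts without 1 library were 3 to 5 in primary tumors, 2 to 3 in LN, 1 to 5 in lung, 0 in LN over primary tumors, 0 to 2 between marrows and 3 to 6 for the interaction. In LN the count was 5 with 10 counts asked of every library, 5 with all 5 groups in 1 fit, and 6 with DESeq2, shrunken or not. In lung it was 4 without the filter, 4 with the strict filter, 5 with all groups, and 4 with DESeq2, shrunken or not. DESeq2 gave 3 (unshrunken) and 2 (shrunken) for LN over primary tumors, 2 and 2 between marrows and 7 for the interaction. Correlations of same-numbered deviations lay between -0.154 and 0.084. Libraries with different numbers were not set beside them, so whether replicate numbers pair these libraries is not settled. With the replicate number as a block edgeR called 0 DEGs in primary tumors, LN and lung, with 8, 7 and 4 members at an adjusted p under 0.05, and 3 in the interaction. In the comparisons with marrow the block leaves few residual degrees of freedom. TIM replicates 4 and 5 have no marrow library of the same number and then add nothing to the group difference. The loss of calls in that fit therefore cannot show whether replicate numbers pair libraries. The cause of the shifts between settings was not tested. Egr3 and Nr4a3 were each at or under 3 counts in some libraries. LN replicate 1, with 0 counts of Nr4a3, had 90490173 counts in total. It held 11047 genes at 10 counts or more, against 12433 to 12828 in the other LN libraries. Lung replicate 3 held 12015 such genes, against 13272 to 13695 in the other lung libraries. The part of this in the members' values was not tested.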
